A study of Mus musculus with 7 samples.

Results

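The chemokine Cxcl16 (Entrez Gene 66102), its receptor Cxcr6 (80901) and the membrane proteases Adam10 (11487) and Adam17 (11491) were examined in brain microglia of 5xFAD mice. These 4 genes make up the ligand, receptor and shedding enzymes of the axis named in the title of the series. They were found by their symbols in the annotation of the probe sets, which gave 1 probe set for each, among 19505 genes with a symbol. The 3 wildtype arrays came from mice labelled 5xFAD;B2m+/+ and the 4 knockout arrays from mice labelled 5xFAD;B2m–/–, all on the C57BL/6 strain. Both genotypes thus carried the 5xFAD transgenes, which hold familial Alzheimer mutations and are driven by a neuronal Thy1 promoter in this model, and no array came from mice without amyloid transgenes. The knockout mice lacked functional B2m, the light chain of MHC class I, and the genotype as written does not limit this to microglia. The labels gave no age, sex or batch, and did not say whether each array was a separate animal, so p-values describe the variation among these arrays, part of which may be technical. Cells were sorted as viable, CD45 positive and CD11b positive, a gate that leaves out most T cells and can admit other myeloid cells.

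CXCL16 is made as a membrane protein with a chemokine domain on a mucin-like stalk, and in that form it also binds oxidised lipoprotein and phosphatidylserine as a scavenger receptor. ADAM10 cleaves the stalk in resting cells and ADAM17 after stimulation, which frees a soluble chemokine. CXCR6, the only known receptor for CXCL16, is found on effector and tissue-resident T cells, natural killer T cells and some innate lymphoid cells, and the axis is known for retaining CD8+ T cells in tissues.

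The promoters of the genes found in the RefSeq table (GRCm38.p6, 3 of 4 genes) are shown because Adam10 and Adam17 were measured above background on every array and Cxcr6 on none. The 250 bases before the start of transcription are printed from 5′ to 3′ on the gene's own strand. Capitals mark matches, on either strand, to 5 motifs that were chosen with the sequences in view. They were the GC box, spelled GGGCGG, the E-box of the form CACGTG, the RUNX motif, spelled TGTGGT, the interferon-responsive GAS motif, spelled TTCNNNGAA, and the TATA box in the form TATAAA. In the Adam10 promoter a pair of GC boxes overlap and share letters. The windows are chr9:70678732-70678981 (plus strand) for Adam10, chr12:21373633-21373882 (minus strand) for Adam17 and chr9:123806227-123806476 (plus strand) for Cxcr6.
Adam10: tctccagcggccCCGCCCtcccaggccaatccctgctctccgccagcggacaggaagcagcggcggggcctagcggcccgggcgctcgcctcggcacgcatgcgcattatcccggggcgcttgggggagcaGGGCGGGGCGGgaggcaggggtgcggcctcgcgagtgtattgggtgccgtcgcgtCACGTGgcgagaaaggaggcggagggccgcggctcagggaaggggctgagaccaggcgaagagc
Adam17: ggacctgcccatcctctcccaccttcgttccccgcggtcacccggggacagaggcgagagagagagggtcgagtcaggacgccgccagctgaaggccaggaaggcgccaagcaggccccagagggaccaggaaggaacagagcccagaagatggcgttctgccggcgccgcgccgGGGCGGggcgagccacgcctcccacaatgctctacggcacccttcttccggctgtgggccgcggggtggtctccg
Cxcr6: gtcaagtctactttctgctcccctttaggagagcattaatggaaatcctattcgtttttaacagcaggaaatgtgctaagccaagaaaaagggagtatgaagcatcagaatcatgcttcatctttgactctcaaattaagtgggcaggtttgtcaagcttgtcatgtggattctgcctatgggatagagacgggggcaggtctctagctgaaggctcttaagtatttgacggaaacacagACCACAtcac

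The protease promoters were rich in G and C, with 74.0% in Adam10 and 70.4% in Adam17, and held 29 and 23 CpG dinucleotides. The Cxcr6 promoter held 43.6% G and C and 3 CpG dinucleotides. Among 32841 RefSeq promoter windows of the same length, 95.1% had less G and C than Adam10, 91.2% less than Adam17 and 20.0% less than Cxcr6. The median was 59.6% over windows of genes tested here and 51.2% over those of measured genes too dim to be tested, so the protease windows lay above the first and the receptor window below the second. Adam10 held 3 GC box matches and 1 E-box match, Adam17 held 1 GC box match and Cxcr6 held 1 RUNX match. Such matches occur in 32.7% (GC box), 6.02% (E-box) and 14.0% (RUNX) of all windows. The GAS motif and the TATA box, found in 7.02% and 12.4% of all windows, matched in 0 of the 3. These are descriptions of letters and no binding was measured.

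The labels were checked first on B2m itself. B2m lay between 13.39 and 13.42 on the wildtype arrays and between 10.24 and 10.56 on the knockout arrays, in log2 expression after RMA, the scale of all values here. Microglial identity was checked with 9 markers, of which the receptor gene Csf1r was the brightest. The value that 95% of negative control rows stayed under on each array (9.35 to 9.55) is called the background limit here. B2m lay above it on the knockout arrays too, so the label check showed a lower signal and not an absent one. All 9 microglia markers exceeded this limit on every array. Their mean was 12.24 ± 0.045 (SD, n = 3) on the wildtype arrays and 12.23 ± 0.063 (SD, n = 4) on the knockout arrays. Markers of other cells were present too and varied between arrays. All 6 neutrophil markers measured exceeded the background limit on at least 1 array, and the log2 of their summed level ran from 13.49 to 14.15 in wildtype and from 13.50 to 14.94 in knockout arrays. All 6 differences lay above 0 (knockout minus wildtype), with a median of 0.67. In limma 0 of the 6 passed the threshold of an adjusted p under 0.05 and 1 was higher at an unadjusted p under 0.05. Ngp, the brightest, encodes a neutrophil granule protein and differed by 0.20 (SE 0.24, adjusted p = 0.778). For 12 endothelial and mural markers the summed level ran from 13.26 to 14.05 in wildtype and from 13.42 to 13.56 in knockout arrays. Of these 11 were tested, all 11 differences lay below 0 with a median of -0.22, 0 passed in limma and 4 were lower at an unadjusted p under 0.05. Cldn5, a tight junction gene and the brightest of them, differed by -0.21 (SE 0.19, adjusted p = 0.684). Of 5 tested monocyte markers 0 passed in limma and 2 were higher at an unadjusted p under 0.05. These were Plac8 at 1.1 (SE 0.30, adjusted p = 0.315) and Chil3 at 1.17 (SE 0.47, adjusted p = 0.386), both chosen after their values were seen, while the brightest, Fn1, differed by -0.32 (SE 0.23, adjusted p = 0.598). Of all genes tested, 8.39% reached an unadjusted p under 0.05 with a higher value in knockout arrays and 3.54% with a lower one. The part of these cells in the other results was not tested.

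Cxcl16, the ligand, was measured far above background in these cells and had nearly the same level in both genotypes. Its log2 values were 12.35, 12.44 and 12.68 on the wildtype arrays and 12.68, 12.56, 12.60 and 12.44 on the knockout arrays. The genotypes overlapped over almost their whole ranges, with wildtype replicates 1 and 2 and knockout replicate 4 at the low end. The wildtype mean was 12.49 ± 0.17 (SD, n = 3) and the knockout mean 12.57 ± 0.10 (SD, n = 4), a difference of 0.079 (SE 0.11, limma adjusted p = 0.820 over 10004 genes). As a ratio of knockout to wildtype this was 1.06-fold with a 95% confidence interval of 0.889 to 1.26. Loss of B2m therefore went with no detectable change of Cxcl16 mRNA, and the interval leaves out a rise of more than 1.26-fold or a fall of more than 1.13-fold. The values exceeded 99.5% to 99.7% of the negative control rows of their arrays, so background did not limit this measurement. In bulk samples such as these, fewer cells of a type and less RNA per cell cannot be told apart. Taken relative to the mean of the 9 microglia markers on the same array, the Cxcl16 difference was 0.086 (limma adjusted p = 0.857).

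Cxcr6, the receptor, was not measured above background in either genotype. Its values were 6.72, 6.57 and 6.48 on the wildtype arrays and 6.50, 6.19, 6.41 and 6.91 on the knockout arrays. Both the lowest and the highest value belonged to knockout arrays, replicates 2 and 4. Each of the 7 values exceeded 50.2% to 61.4% of the negative control rows, the middle of that distribution, and the gene did not pass the filter on dim genes. Without the filter the difference was -0.085 (SE 0.16, limma adjusted p = 0.907), and no fold is given because neither genotype exceeded background. This shows that the transcript was not detected in these sorted cells, and does not bear on its level in lymphocytes outside the gate.

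Markers of the cells that usually carry CXCR6 stayed under the background limit, with 1 exception. Of 7 T cell markers measured, of which Cd5 was the only 1 that passed the filter on dim genes, 0 exceeded the background limit on any array, and the same count was 0 of 7 for natural killer cells. Of 9 markers of CD8 T cells and tissue residency, 1 exceeded it, the checkpoint receptor Pdcd1, which myeloid cells can also express, on 6 of 7 arrays. Pdcd1 was 9.67 in wildtype and 10.04 in knockout arrays on average, a difference of 0.36 (SE 0.17, limma adjusted p = 0.444). The coreceptor gene Cd8a, chosen after its values were seen, was 7.54, 7.27 and 7.36 on the wildtype and 7.23, 7.15, 7.19 and 7.17 on the knockout arrays. Its genotypes did not overlap. Another marker of this list that failed the filter did not overlap either, also with lower knockout values. Non-overlap held for 10.9% of all genes tested, a share taken only over genes that passed the filter. Cd8a did not pass the filter and stayed under the background limit on every array, so no fold is given. Other CD8 and tissue residency markers that failed the filter were higher or lower in knockout arrays, all under the background limit.

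**Figure D1:**
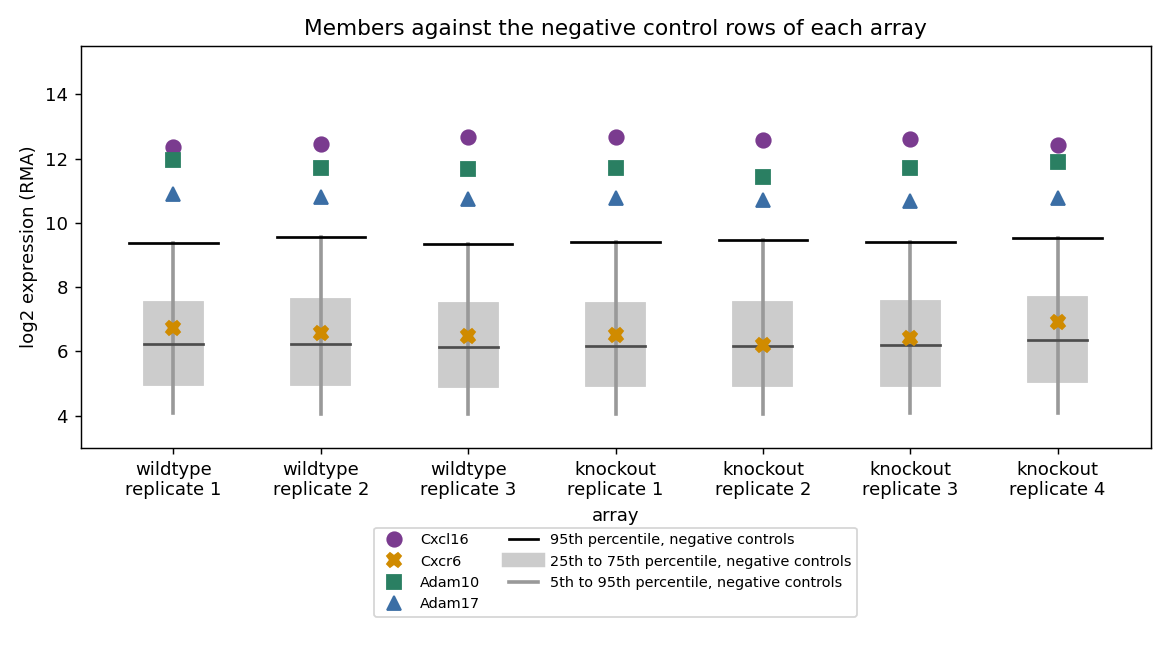
Log2 expression of Cxcl16, Cxcr6, Adam10 and Adam17 on each of the 7 arrays (coloured symbols), with the negative control rows of the same array in grey (box, 25th to 75th percentile; line, 5th to 95th percentile; black bar, 95th percentile; dark line in the box, median). Cxcl16, Adam10 and Adam17 lie above the black bar on every array, and Cxcr6 lies inside the grey box on every array.

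Adam10, the protease that sheds CXCL16 from resting cells, was well above background and did not differ between the genotypes beyond the spread between arrays. Its values were 11.96, 11.69 and 11.67 on the wildtype arrays and 11.72, 11.43, 11.70 and 11.89 on the knockout arrays. Wildtype replicate 1 and knockout replicate 4 were the highest and knockout replicate 2 stood alone at the low end. Means were 11.77 ± 0.16 (SD, n = 3) and 11.68 ± 0.19 (SD, n = 4), a difference of -0.088 (SE 0.13, limma adjusted p = 0.827). The ratio of knockout to wildtype was 0.941 with a 95% confidence interval of 0.771 to 1.15. Without wildtype replicate 1 the difference was 0.0048, so that even its sign rests on that array. Without knockout replicate 2 the difference was -0.0039, so its size rests on that array as well.

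Adam17, the protease of stimulated shedding that also releases TNF, was the steadiest of the 4 genes. Its values were 10.89, 10.80 and 10.74 on the wildtype arrays and 10.79, 10.72, 10.68 and 10.77 on the knockout arrays. Wildtype replicates 1 and 2 were the highest, the second by a narrow margin, and wildtype replicate 3 lay among the knockout values. Over all 7 arrays the SD was 0.068, and 2.86% of the 10004 genes tested had a smaller one. Means were 10.81 ± 0.075 (SD, n = 3) and 10.74 ± 0.050 (SD, n = 4), a difference of -0.073 (SE 0.093, limma adjusted p = 0.794). The ratio of knockout to wildtype was 0.951 with a 95% confidence interval of 0.824 to 1.1.

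**Figure D2:**
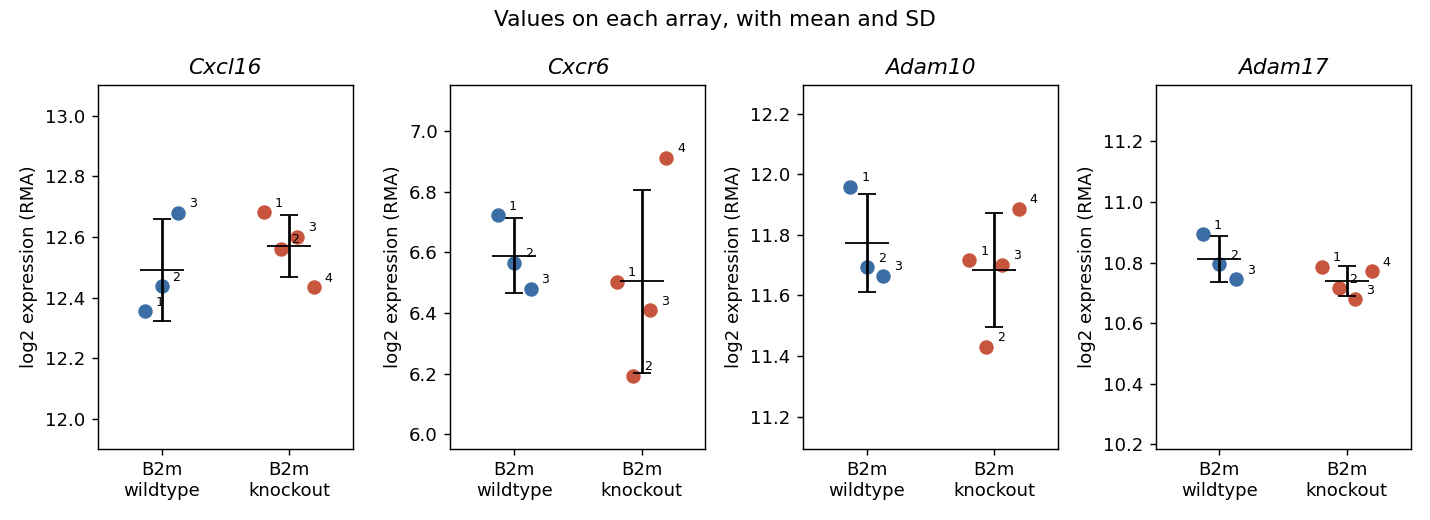
Log2 expression (RMA) of each gene on the 3 wildtype (blue) and 4 knockout (red) arrays, numbered by replicate, with the mean and SD in black; every panel spans the same range of log2 units. The genotypes overlap in all 4 panels, and Adam17 has the narrowest spread.

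Of the 3 genes tested, 0 passed the threshold of an adjusted p under 0.05 in limma, 0 had an unadjusted p under 0.05, and 0 had genotypes that did not overlap. Over all 10004 genes tested, 0.05% passed, 11.9% had an unadjusted p under 0.05 and 10.9% did not overlap, so an absence among 3 genes is no departure from the rest. The number of genes that passed was 5, and 26 without wildtype replicate 3. The absolute difference was larger than that of Cxcl16 in 64.3% of tested genes, than that of Adam10 in 60.3% and than that of Adam17 in 67.1%. Exact permutation tests over the 35 splits of the arrays (two-sided) gave p = 0.429 for Cxcl16, 0.514 for Adam10, 0.20 for Adam17 and 0.686 for Cxcr6, where 0.0286 is the smallest p possible.

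Between arrays, Cxcl16 and the proteases deviated from their means in different ways. Cxcl16 lay furthest below its mean on wildtype replicate 1, by a deviation of -0.18, where Adam10 (0.24) and Adam17 (0.12) lay furthest above theirs. On knockout replicate 4 Cxcl16 deviated by -0.10 and Adam10 by 0.16. Endothelial and mural markers were highest on wildtype replicates 1 and 2, with median deviations of 0.41 and 0.45, and between -0.26 and -0.032 on the other arrays. Neutrophil markers were highest on knockout replicates 4 (1.08) and 3 (0.56). Thus 2 of the 3 arrays with low Cxcl16 were those highest in endothelial markers, and the other was the one highest in neutrophil markers. Neither list ran against Cxcl16 on all arrays. On knockout replicate 3, also high in neutrophil markers, Cxcl16 lay above its mean (0.065). On wildtype replicate 1, with the lowest Cxcl16, neutrophil markers had a median deviation of -0.54. Endothelial and mural cells carry neither CD45 nor CD11b, and the gate does not leave out neutrophils. Markers of both lists were present all the same. The brightest of each, Cldn5 and Ngp, exceeded the background limit on every array. The part of endothelial and mural cells or of neutrophils in the Cxcl16 values was not tested. With both wildtype replicates 1 and 2 left out, which leaves 1 wildtype array, the Cxcl16 difference was -0.11 (limma adjusted p = 0.999).

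**Figure D3:**
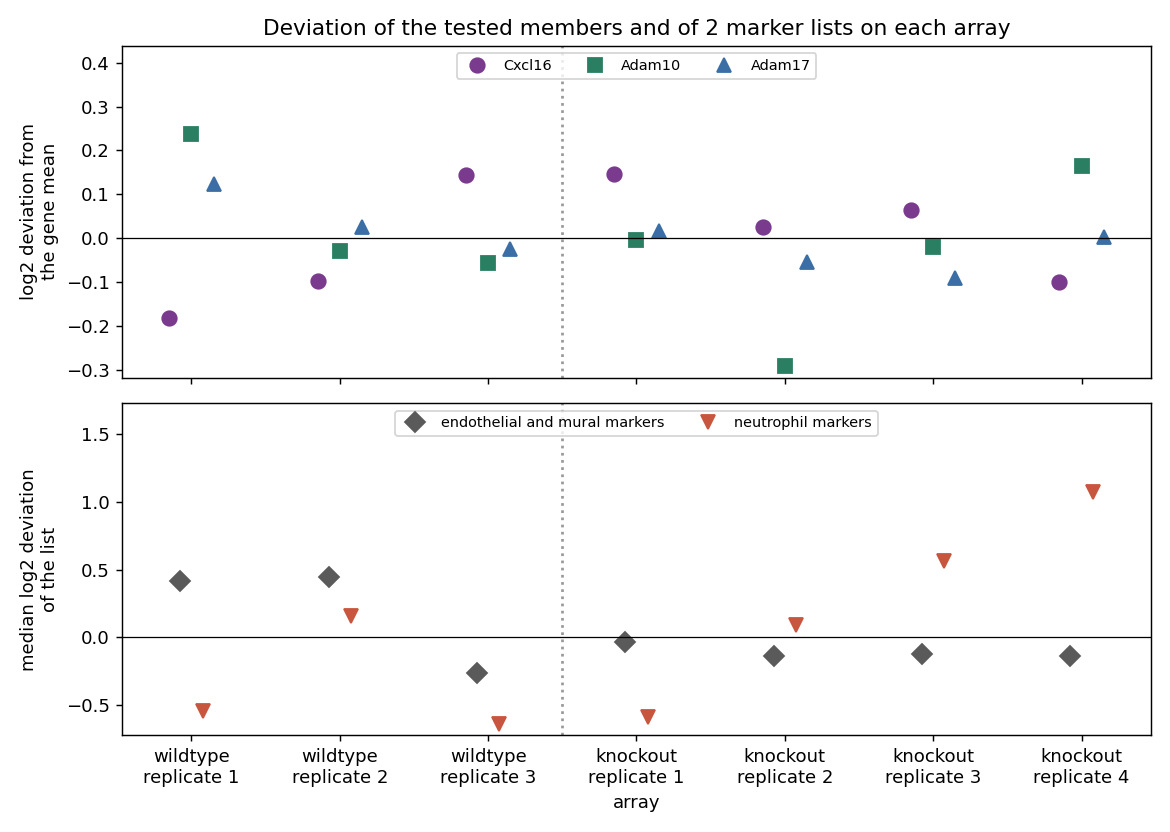
Upper panel, deviation of Cxcl16, Adam10 and Adam17 from their mean over 7 arrays, in log2 units; lower panel, median deviation of 12 endothelial and mural and 6 neutrophil markers on the same arrays, with a dotted line between the wildtype and knockout arrays. Wildtype replicate 1 combines the lowest Cxcl16 with the highest Adam10 and Adam17, and the endothelial list is highest on wildtype replicates 1 and 2.

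Proteins that mature, carry or inhibit the sheddases were measured with 15 genes, of which 11 passed the filter. In limma 0 of the 11 passed the threshold and 0 had an unadjusted p under 0.05, with 6 differences above 0, 5 below 0 and a median of 0.017. The median was -0.064 without wildtype replicate 3, and -0.0030, -0.028 and -0.0070 without knockout replicates 2, 3 and 4 in turn. Over all genes tested 48.6% of differences lay above 0 and the median was -0.0055. The smallest p belonged to Timp3, an inhibitor of ADAM17, at -0.26 (SE 0.14, adjusted p = 0.50), and to the tetraspanins Tspan5 at -0.17 (SE 0.11, adjusted p = 0.571) and Tspan17 at -0.23 (SE 0.15, adjusted p = 0.578), which escort ADAM10. Timp3 and Tspan17 stayed under the background limit on every array, and Tspan5 exceeded it on 1. Partners measured clearly above background, chosen after their values were seen, had narrow differences. Tspan14, another escort of ADAM10, differed by -0.029 (SE 0.093), and Rhbdf2, the iRhom that brings ADAM17 to the surface of immune cells, by 0.017 (SE 0.095). Frmd8, which stabilises iRhom complexes, differed by 0.091 (SE 0.12), and the metalloprotease inhibitor Timp2 by 0.13 (SE 0.10). The proprotein convertase Furin, which removes the inhibitory domains of ADAMs, differed by -0.051 (SE 0.10).

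Of 10 other ADAM genes, 5 passed the filter and 0 passed the threshold in limma. At an unadjusted p under 0.05, 1 was lower (3.54% of all genes tested). Adam22, which lacks protease activity and is known from synapses, was 8.50, 8.58 and 8.31 on the wildtype and 7.74, 7.93, 8.12 and 8.28 on the knockout arrays. Its genotypes did not overlap, by a narrow margin, which held for 1 of the 5 tested genes against 10.9% of all genes tested. The difference was -0.45 (SE 0.14, limma adjusted p = 0.322), at values under the background limit. Adam8, a leukocyte protease, was 7.78, 8.16 and 7.58 on the wildtype and 7.57, 7.67, 8.54 and 9.63 on the knockout arrays. It was highest on knockout replicates 4 and 3, the arrays highest in neutrophil markers, and exceeded the background limit on replicate 4 alone. The difference was 0.51 (SE 0.42, adjusted p = 0.655), and 0.085 without knockout replicate 4. The part of neutrophils in the Adam8 values was not tested. Adam15 differed by 0.10 (SE 0.096, adjusted p = 0.702). The list's median was 0.099, and 0.046 without knockout replicate 4.

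Other membrane proteins that ADAM10 or ADAM17 shed were represented by 21 measured genes, 19 of them tested. In limma 0 passed, 1 was higher and 2 were lower at an unadjusted p under 0.05 (8.39% and 3.54% of all genes tested), 11 of 19 differences lay below 0, and the median was -0.065. Without wildtype replicate 1 the median was 0.0016. Hbegf, a ligand of the EGF receptor released by ADAM17, was 10.09, 9.89 and 10.05 on the wildtype and 9.66, 9.61, 9.18 and 9.54 on the knockout arrays. All 4 knockout values lay below all wildtype values, 6 of the 7 arrays exceeded the background limit, and the difference of -0.51 (SE 0.13, limma adjusted p = 0.315) did not pass. The hyaluronan receptor Cd44 was 8.0, 7.91 and 7.77 on the wildtype and 8.02, 8.27, 8.38 and 9.0 on the knockout arrays. Its difference was 0.52 (SE 0.20, adjusted p = 0.367), or 0.33 without knockout replicate 4, with every value under the background limit and the highest on knockout replicate 4, the array highest in neutrophil markers. That cell type's part in the Cd44 value was not tested. Cx3cl1, the other chemokine made as a membrane protein, was named outside the naming rule, is mainly neuronal and did not pass the filter. Lag3, an inhibitory receptor cleaved by both proteases, differed by -0.33 (SE 0.15, adjusted p = 0.417). The genotypes did not overlap in 4 of the 19 genes, against 10.9% of all genes tested.

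**Figure D4:**
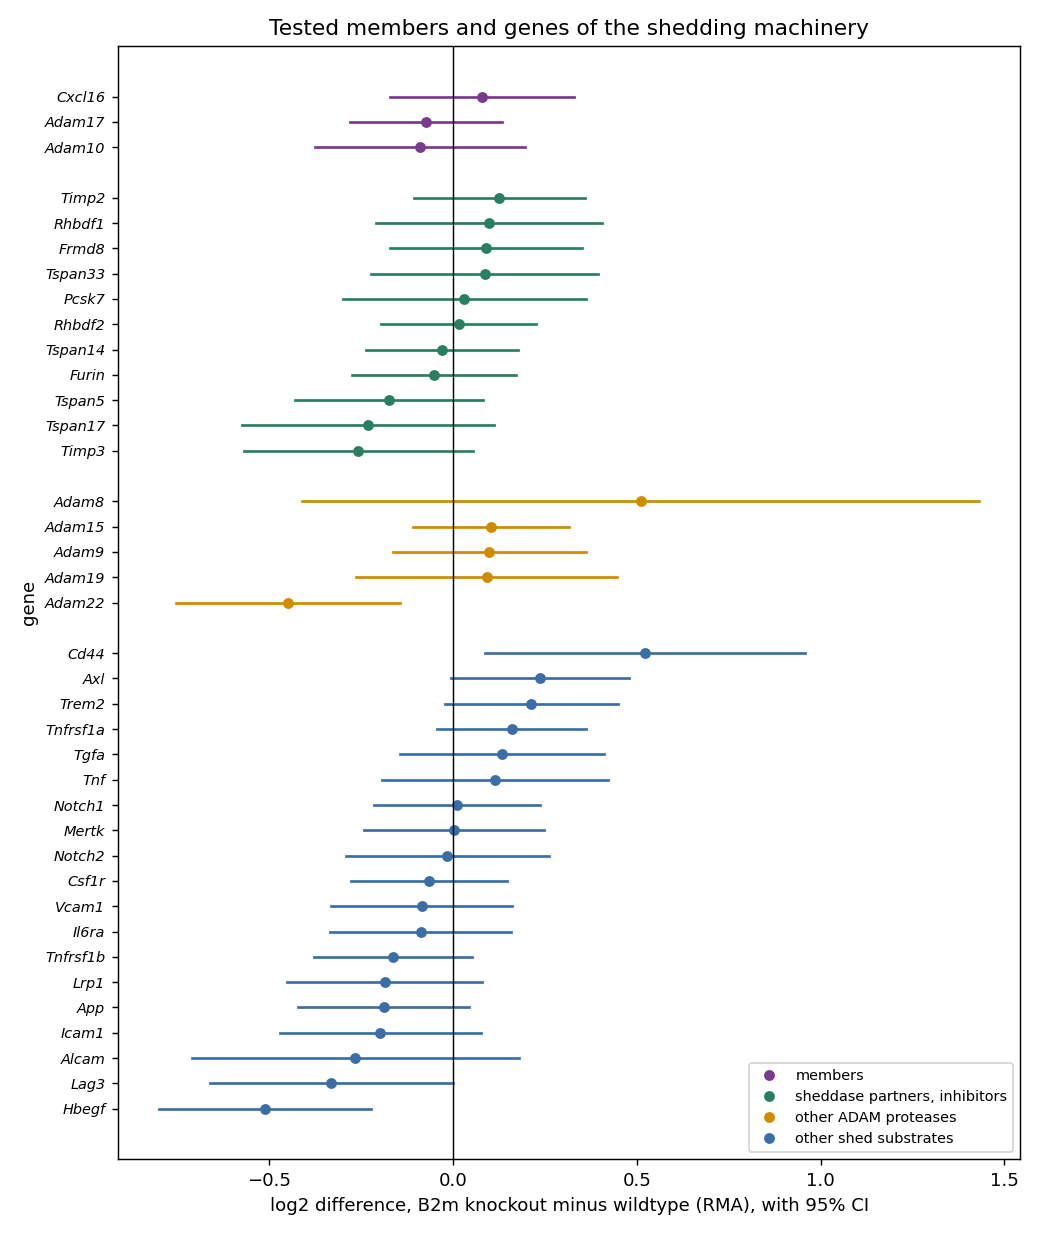
Log2 difference (knockout minus wildtype) with its 95% confidence interval for the tested genes among the 4 of the axis (purple), the partners and inhibitors of the sheddases (green), other ADAM genes (orange) and other shed membrane proteins (blue), each set ordered by its difference. The intervals of Cxcl16, Adam10 and Adam17 and of all 11 partners include 0, while those of Adam22, Cd44, Hbegf and, narrowly, Lag3 do not; the intervals are not adjusted for the number of genes.

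Interferon-gamma and TNF are known inducers of Cxcl16. Of 12 genes of their signalling chosen, 10 were measured and tested, 0 passed in limma, 1 was higher at an unadjusted p under 0.05 (8.39% of all genes tested), and the median was -0.071. The median was -0.012 without wildtype replicate 1 and -0.015 without knockout replicate 1. The genotypes did not overlap in 3 of the 10 genes, Traf2, Tnfrsf1a and Tnfrsf1b, against 10.9% of all genes tested. Tnfrsf1a and Tnfrsf1b were also counted among the shed membrane proteins above whose genotypes did not overlap, so these counts are not separate. The adaptor Traf2 differed by 0.29 (SE 0.10, adjusted p = 0.348), at values under the background limit. The TNF receptor genes Tnfrsf1a and Tnfrsf1b, which ADAM17 also sheds, differed in opposite ways by 0.16 (SE 0.091, adjusted p = 0.514) and -0.16 (SE 0.097, adjusted p = 0.534). Neither passed.

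Scavenger receptors, the other role of membrane-bound CXCL16, had 9 measured and 4 tested genes. In limma 0 passed, 1 was higher at an unadjusted p under 0.05 (8.39% of all genes tested), and the median was 0.14. Olr1, a receptor for oxidised lipoprotein, differed by 0.38 (SE 0.14, adjusted p = 0.356) under the background limit, the lysosomal Scarb2 by 0.16 (SE 0.11, adjusted p = 0.586) and Scarb1 by 0.12 (SE 0.16, adjusted p = 0.802). Of 9 tested genes that relay chemokine receptor signals, 0 passed and 0 had an unadjusted p under 0.05, with a median of 0.027. That median was -0.090 without knockout replicate 4 and -0.052 without wildtype replicate 3. Arrb1 differed by -0.16 (SE 0.12, adjusted p = 0.615), the kinase subunit Pik3r5 by -0.17 (SE 0.13, adjusted p = 0.638) and Grk6 by 0.15 (SE 0.14, adjusted p = 0.709).

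Among 20 other CXC and CX3C ligands and receptors, 9 passed the filter and 0 passed the threshold in limma. At an unadjusted p under 0.05, 1 was higher (8.39% of all genes tested), and the median was -0.017. The neutrophil attractant Cxcl2 differed by 0.35 (SE 0.14, limma adjusted p = 0.381). Cxcr4, the receptor of CXCL12, differed by 0.24 (SE 0.13, adjusted p = 0.50), and Cxcr3, a receptor of interferon-induced chemokines, by -0.16 (SE 0.10, adjusted p = 0.544), with 1 array above the background limit. Without wildtype replicate 3 the median of these 9 genes was 0.18, and it was 0.023 to 0.030 without wildtype replicates 1 or 2 or knockout replicates 2 or 4.

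The genes whose values ran most like each tested gene across the 7 arrays were listed by Pearson's r, as a description in which all points share the same arrays. For Cxcl16 they were the immunoregulatory Fgl2 (r = 0.986), Pnma1 (0.975), Gnptg (0.961), Rnaseh1 (0.957) and Hint2 (0.956). For Adam10 they were Brox (r = 0.990), the CCR4-NOT subunit Cnot2 (0.988), the deubiquitinase Usp9x (0.982), the coactivator Ncoa3 (0.973) and Herpud2 (0.973). For Adam17 they were Agfg1 (r = 0.985), the chromatin regulator Kmt2e (0.979), the nuclear receptor Nr4a2 (0.971), the mannose receptor Mrc1 (0.964) and Dab1 (0.956). An r above 0.95 was reached by 8 tested genes with Cxcl16, 29 with Adam10 and 7 with Adam17. Of these 15 named genes, Nr4a2 was the only 1 whose genotypes did not overlap, against 10.9% of all genes tested. Nr4a2 differed by -0.55 (SE 0.19, limma adjusted p = 0.348), with every value under the background limit. Mrc1, a marker of border-associated macrophages, differed by -0.27 (SE 0.13, adjusted p = 0.466).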

How the data were processed

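Per the submitters' processing notes, the authors used RMA and Affymetrix Expression Console 1.1 to make the deposited log2 expression values, 1 per probe set and array. RMA subtracts background, normalizes between arrays and summarizes probes, which compresses differences of dim genes. For build and array annotation: not given in the sources used here. All 28846 rows were used without further normalization, and 19572 carried 1 gene symbol, all matched by Entrez identifier to a RefSeq table of GRCm38.p6. For the 55 genes with more than 1 probe set, the brightest on average was kept. Rows tagged neg (5222) served as a rough guide to background, with 95th percentiles of 9.35 to 9.55.

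The filter on dim genes asked for values above the median of all named genes on at least 3 of 7 arrays, which kept 10004 genes. Knockout and wildtype arrays were compared with limma 3.58.1 in R 4.3.3 (lmFit and eBayes, Benjamini-Hochberg adjustment over all tested genes), after the script was tested on simulated data. For arrays, their number limits the precision. The 4 genes and the gene lists were chosen with earlier results of these data known, and no list was tested as a set. Genes were named by a rule: the 4 genes, B2m, the called genes and the 3 smallest p in each pathway list, the 5 most alike by Pearson's r, and the brightest tested gene of each cell type list. The last are left unnamed here for dendritic cells, astrocytes, oligodendrocytes and neurons. Any gene named outside the rule is said to be. Some listed genes were not analysed here. Astrocyte, oligodendrocyte and neuron markers exceeded the 95th percentile of the negative controls on 0 arrays. Dendritic cell markers exceeded it for at most 1 gene per array, and monocyte and border-associated macrophage markers for 1 to 4.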

Additional observations from a re-analysis of the deposited data

Results flagged for a closer look

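In knockout replicate 4, Csf1r, a microglial receptor gene that ADAM17 sheds, stood apart from the other knockout arrays at 13.36 against 13.28 to 13.29. It was the only 1 of 60 genes, 51 picked by the naming rule and 9 named outside it, for which a knockout array lay so far from the other 3, measured as the gap over the whole range (0.855, past the 95% limit for 4 samples). Chance flags about 1 in 20 such groups. The wildtype group of 3 arrays was too small for this check. Csf1r ran from 13.26 to 13.47 on those arrays, so the flagged value lay within the wildtype range.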

How the results depend on the processing

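Cxcl16, Adam10 and Adam17 did not pass under any of 20 alternatives each, nor Cxcr6 under 18, and their lowest adjusted p values in limma were 0.569, 0.596, 0.654 and 0.542. Leaving out 1 array at a time gave differences of 0.011 to 0.17 for Cxcl16, -0.16 to 0.0048 for Adam10, -0.11 to -0.032 for Adam17 and -0.22 to 0.019 for Cxcr6. The sign turned for Adam10 without wildtype replicate 1 and for Cxcr6 without knockout replicate 2. With both wildtype replicates 1 and 2 left out, where the lone wildtype array is assumed to vary like the others, the differences were -0.11 for Cxcl16, 0.019 for Adam10 and 0.025 for Cxcr6, all of turned sign. The causes were not tested. No scaling tried (repeated quantile normalization, centring on medians, or values relative to microglia markers, the last chosen after seeing the data) turned a sign. The number of genes called over the whole table was 4 to 26 with 1 array left out and 4 or 5 under the other alternatives. Leaving out arrays for Adam8 and Cd44, also chosen after seeing the data, gave differences of 0.085 to 0.77 and 0.33 to 0.65. A stricter filter gave no value for Cxcr6. No paired analysis was possible because the labels give no pairing. They give no replicate numbers either, and those used here follow the order of the samples within each genotype. The number of arrays limits the precision, and Cxcr6 lay within background.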
